A study of Mus musculus with 4 samples.

Results

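The genes that write and read DNA methylation were followed across 4 mouse RNA samples: Dnmt1, Dnmt3a, Dnmt3b, Dnmt3l, Uhrf1, Mbd1, Mbd2, Mbd3 and Mbd4. Every probe whose RefSeq transcript accession belongs to one of these genes was taken, whatever its values, which gave 13 probes for the 9 genes, of 41160 probes and 16357 genes with a symbol on the array. The samples were induced pluripotent stem (iPS) cell lines 7 and 13 (n = 2), E14 embryonic stem (ES) cells of strain 129 (n = 1), and bone marrow mononuclear cells (BMMNCs) of strain C57BL/6 (n = 1). The iPS lines were reprogrammed from marrow mononuclear cells of C57BL/6 mice with an Oct4-EGFP transgene. ES and iPS cells were grown with LIF on irradiated mouse embryonic fibroblasts, which were depleted by preplating on gelatin before RNA was taken, and each RNA was hybridised to its own Agilent array in a single colour. The reprogramming factors, passage numbers and the ages and numbers of mice are not given in the sources used here, and BMMNCs are a mixture of blood cell types.

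Methyl groups on CG dinucleotides are copied to the new DNA strand at replication by Dnmt1, which Uhrf1 guides to half-methylated sites. New methylation is laid down by Dnmt3a and Dnmt3b, and Dnmt3l, a relative with no catalytic activity of its own, stimulates both. The methyl-CpG-binding domain proteins Mbd1, Mbd2 and Mbd4 bind methylated CG and are tied to silencing or, for Mbd4, to repair of mismatches that arise when methylated cytosine is deaminated. Mbd3 is the related subunit of the nucleosome remodelling and deacetylase complex NuRD and in mammals does not bind methylated DNA selectively. Mouse ES cells are known for strong expression of Dnmt3b and Dnmt3l.

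All levels below are log2 signals minus the array's 75th percentile, so a level of 0 is a probe at that percentile. Probes differ in brightness per transcript, so the level of 1 gene was not read against that of another, and a summed level over a list weighs its brightest probes most. Each of the 13 probes had 1 spot per array, and all were well above background on all 4 arrays. Marker genes were detected as the labels have it, with a difference in level for Zfp42 given beside the ES comparison. All 6 pluripotency markers tested were well above background in the iPS lines and in ES cells, and 5 of 6 were not in BMMNCs, while all 7 markers of marrow blood cells were well above background in BMMNCs and 5 of 7 were not in either iPS line. The 8 feeder fibroblast markers were well above background in the iPS lines and ES cells, and the log2 of their summed level was 9.08 in line 7, 8.96 in line 13, 8.85 in ES cells and 6.47 in BMMNCs, where 3 of 8 were not well above background. In these bulk samples a change in the share of cells that express a gene and a change in RNA per cell cannot be told apart, and the part of remaining feeder cells in the results below was not tested.

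The first comparison set the iPS lines against BMMNCs, the kind of cell they were made from. Genes of new methylation were higher in both lines, genes of maintenance were slightly lower, and the methyl-CpG binders Mbd1, Mbd2 and Mbd4 were lower by 2.34-fold to 2.76-fold. Of the 13 probes, 5 rose (4 genes), 6 fell (5 genes) and 2 did not pass the threshold, an adjusted p of 0.05 in limma over all 27257 probes tested. In this comparison 76.4% of all probes passed, 40.0% higher and 36.4% lower, so a pass by itself does not set these genes apart. The median absolute log2 difference was 1.32 over the 13 probes and 1.14 over all probes. All replicate error comes from the pair of iPS lines (1 residual degree of freedom), and the single arrays of ES cells and BMMNCs were assumed to share it. The sources used here do not say whether the lines come from separate mice, so the p-values reflect only how far these samples scatter, and that scatter can be technical.

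**Figure D1:**
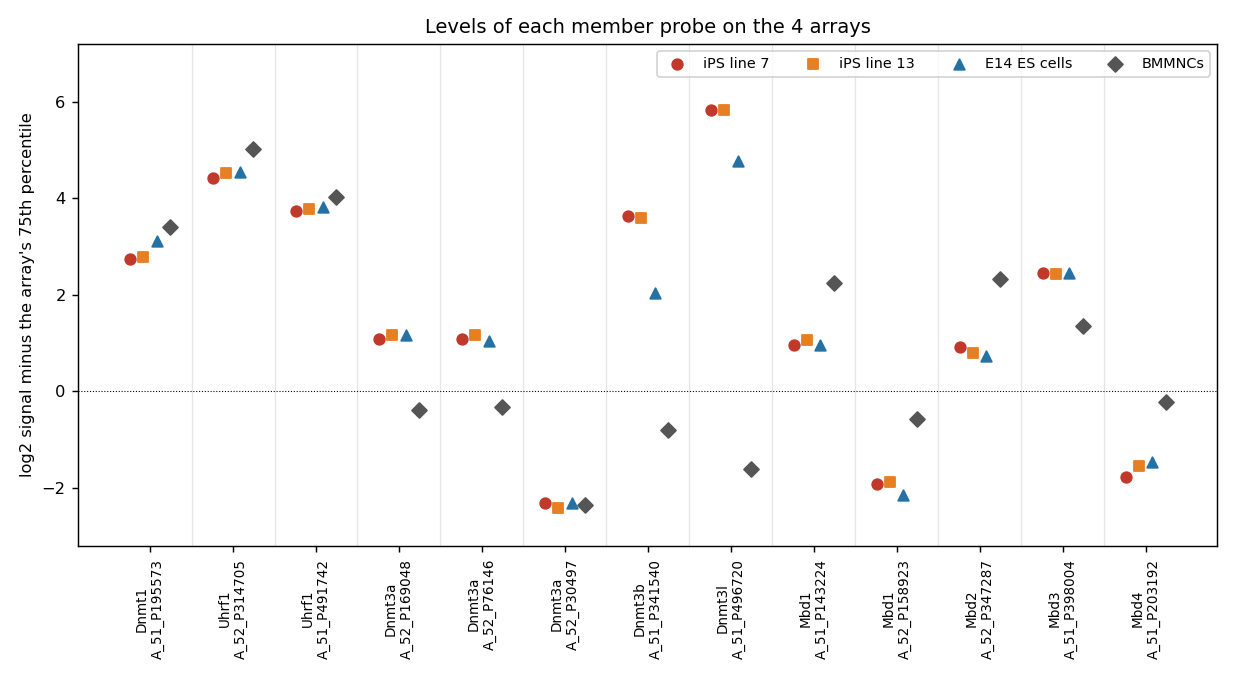
Levels of the 13 member probes (log2 signal minus the array's 75th percentile) in iPS lines 7 and 13, E14 ES cells and BMMNCs, 1 point per array. The iPS points of Dnmt3b and Dnmt3l stand above the ES point, and the BMMNC point lies far below at -0.79 and -1.60, while for Mbd1, Mbd2 and Mbd4 the BMMNC point is the highest.

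Dnmt3l, the cofactor of new methylation, differed most. Its probe (A_51_P496720, for NM_019448, gene on chromosome 10) was at 5.84 in both line 7 and line 13, against -1.60 in BMMNCs. In unscaled fluorescence this was a signal of 64092 and 64357 in the lines and of 199 in BMMNCs. The lines differed by 0.0013 from each other and stood 174-fold above BMMNCs (log2 difference 7.44, SE 0.091, limma adjusted p = 0.000623). Among all probes tested, 294 had a larger rise.

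Dnmt3b, the methyltransferase that acts on new sites in the early embryo, followed (A_51_P341540, for NM_010068, gene on chromosome 2). It was at 3.63 in line 7 and 3.60 in line 13, against -0.79 in BMMNCs, a 21.2-fold rise (log2 difference 4.40, SE 0.093, limma adjusted p = 0.000655). The lines were close together and far from the marrow array, and 1453 probes had a larger rise.

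Dnmt3a, the other enzyme of new methylation, was read by 3 probes that name the same transcript, NM_007872, of a gene on chromosome 12. The first (A_52_P169048) was at 1.10 in line 7 and 1.18 in line 13, against -0.39 in BMMNCs, and rose by 1.53 (SE 0.10, limma adjusted p = 0.00245). The next (A_52_P76146) was at 1.08 and 1.17 in the lines, against -0.33 in BMMNCs, and rose by 1.45 (SE 0.10, limma adjusted p = 0.00282). These 2 probes gave nearly the same size of rise, 2.89-fold and 2.73-fold.

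The third Dnmt3a probe (A_52_P30497) was at -2.30 in line 7 and -2.41 in line 13, against -2.35 in BMMNCs, with a log2 difference of -0.01 (SE 0.11, limma adjusted p = 0.966). Its signal stood least above the local background of the 13 on every array, at 5.62 and 5.70 times the local background in the lines and 3.87 times in BMMNCs. Where along the transcript each probe lies is not given in the files used here. The rise of Dnmt3a was thus seen on 2 of its 3 probes.

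The promoters of the genes of new methylation are shown because CG, the target of these enzymes, is unevenly spread over them. Sequences are RefSeq's on build GRCm38.p6, 300 bases around an annotated start, 5′ to 3′, with CG in capitals. The promoter table held 14 start sites for 7 of the 9 genes.
Dnmt3b, chr2:153649199-153649498, plus strand: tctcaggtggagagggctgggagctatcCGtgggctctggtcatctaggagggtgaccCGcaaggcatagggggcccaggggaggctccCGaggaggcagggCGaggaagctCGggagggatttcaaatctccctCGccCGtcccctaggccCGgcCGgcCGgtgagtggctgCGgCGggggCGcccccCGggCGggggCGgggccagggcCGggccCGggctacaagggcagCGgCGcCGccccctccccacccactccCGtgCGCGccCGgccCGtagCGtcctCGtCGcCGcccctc
Dnmt3l, chr10:78042037-78042336, plus strand: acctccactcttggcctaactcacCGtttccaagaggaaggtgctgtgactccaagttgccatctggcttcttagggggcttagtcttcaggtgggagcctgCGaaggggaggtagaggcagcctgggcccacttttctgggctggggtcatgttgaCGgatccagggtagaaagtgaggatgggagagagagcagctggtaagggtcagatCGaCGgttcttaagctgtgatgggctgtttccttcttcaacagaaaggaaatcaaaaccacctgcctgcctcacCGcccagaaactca
Dnmt3a, chr12:3806910-3807209, plus strand: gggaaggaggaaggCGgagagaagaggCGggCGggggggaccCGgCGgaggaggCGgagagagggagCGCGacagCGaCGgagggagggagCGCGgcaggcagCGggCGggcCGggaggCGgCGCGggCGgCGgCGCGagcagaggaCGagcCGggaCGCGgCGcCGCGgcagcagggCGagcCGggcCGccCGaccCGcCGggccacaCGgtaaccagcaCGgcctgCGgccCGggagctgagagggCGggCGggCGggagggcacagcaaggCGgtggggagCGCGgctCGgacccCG

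Over all 32851 promoters of this length the median number of CG was 7, with quartiles of 3 and 20. Dnmt3b, with 1 start site, had 30, a number that 11.7% of promoters reach. Dnmt3l had 3 start sites with 6, 4 and 3 CG, the first of which is printed, and was the one gene of the 3 whose start sites all lay below the median. Dnmt3a had 46 and 47 CG at its overlapping outer start sites, of which the one with 47 is printed, and 18 at an inner one. Which start sites the arrays' RNA came from was not measured. A search of both strands for GGGCGG, the GC box, found 4 matches at Dnmt3b, 1 at the printed Dnmt3l start site and 7 at the printed Dnmt3a start site, and 35.7% of all promoters held at least 1. The octamer ATGCAAAT, present in 1.74% of all promoters, had no match in any of the 14.

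After scaling, the maintenance genes moved the other way and by little. Dnmt1 (A_51_P195573, for NM_010066, gene on chromosome 9) was at 2.75 in line 7 and 2.79 in line 13, against 3.41 in BMMNCs, and fell by 0.65 on the log2 scale (SE 0.093, limma adjusted p = 0.0120). The lines were 0.035 apart and both lay below the marrow array. In unscaled fluorescence Dnmt1 was at 7542 and 7754 in the lines and at 6421 in BMMNCs, so the direction of its fall rests on the scaling. The fall of Dnmt1 did not pass when ES and iPS cells were fitted as 1 group (adjusted p = 0.102) or when dim probes were kept (adjusted p = 0.0546).

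Uhrf1 was read by 2 probes for NM_010931, of a gene on chromosome 17. The first (A_52_P314705) was at 4.42 in line 7 and 4.53 in line 13, against 5.02 in BMMNCs, and fell by 0.55 (SE 0.11, limma adjusted p = 0.0235; 0.0855 with no filter on dim probes). The second (A_51_P491742) was at 3.73 and 3.79 in the lines, against 4.02 in BMMNCs, a log2 difference of -0.26 (SE 0.096) that did not pass (limma adjusted p = 0.0913). On both probes each line lay below the marrow array. In unscaled fluorescence both were higher in the lines, at 23958 and 25898 against 19521 in BMMNCs on the first probe. The second gave 14844 and 15530 against 9790, so the direction rests on the scaling.

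Dnmt1 and Uhrf1 are known as genes of dividing cells, so genes of DNA replication were read beside them. Of 11 such genes tested, 5 fell against BMMNCs and 6 did not pass, beside 36.4% of all probes that were lower. Their median log2 difference was -0.32. The log2 of their summed level was 8.55 in line 7, 8.64 in line 13, 8.98 in ES cells and 8.97 in BMMNCs. Rrm1, a subunit of the reductase that makes deoxynucleotides, fell by 1.49 (SE 0.099, limma adjusted p = 0.00248), and Pcna, the sliding clamp of replication, by 0.80 (SE 0.12, adjusted p = 0.0118). With ES and iPS cells as 1 group Pcna did not pass (adjusted p = 0.139), and 3 of the 11 genes fell. Mcm2 and Mcm3, subunits of the replicative helicase, differed by 0.27 and -0.14 and did not pass. Mcm2 was higher past the threshold in 5 of 9 alternatives with a test, and the other probe of Mcm3 gave 0.23. The part of cell division in the levels of Dnmt1 and Uhrf1 was not tested.

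E2F factors drive many genes of DNA synthesis, and the promoters of the maintenance genes are shown with the letters TTTGGCGC or TTTCGCGC, on either strand, in capitals (the same RefSeq table and build).
Dnmt1, chr9:20952574-20952873, minus strand: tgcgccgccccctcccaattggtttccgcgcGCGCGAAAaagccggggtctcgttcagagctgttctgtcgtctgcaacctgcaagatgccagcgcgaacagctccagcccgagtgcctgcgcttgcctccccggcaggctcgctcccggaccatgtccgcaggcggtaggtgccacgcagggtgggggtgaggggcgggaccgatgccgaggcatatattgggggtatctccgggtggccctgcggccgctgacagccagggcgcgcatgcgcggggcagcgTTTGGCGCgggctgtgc
Uhrf1, chr17:56304063-56304362, plus strand: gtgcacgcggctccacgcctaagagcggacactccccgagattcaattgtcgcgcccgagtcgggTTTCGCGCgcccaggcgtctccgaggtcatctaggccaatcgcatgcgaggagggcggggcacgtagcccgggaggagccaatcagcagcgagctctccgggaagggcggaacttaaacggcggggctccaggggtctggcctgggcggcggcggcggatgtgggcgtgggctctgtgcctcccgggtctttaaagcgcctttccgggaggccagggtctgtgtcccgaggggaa

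The third of the 3 Dnmt1 start sites held TTTGGCGC at position 34 and the reverse complement of TTTCGCGC at position -219, counted from the start site. The second of the 2 Uhrf1 start sites held TTTCGCGC at position -185. Of all promoters, 0.514% held TTTGGCGC and 0.323% held TTTCGCGC, and none of the other 12 member start sites held either. Both strings contain CG, and each of these start sites had 33 CG, a number that 8.56% of promoters reach. The shares are over all promoters and were not matched for CG content. The matches do not overlap each other, and they describe letters, with no binding measured here.

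The methyl-CpG binders were lower in the iPS lines on every probe. Mbd2, which recruits NuRD to methylated DNA, was at 0.93 in line 7 and 0.80 in line 13, against 2.33 in BMMNCs (A_52_P347287, chromosome 18), and fell by 1.47 (SE 0.11, limma adjusted p = 0.00325). Mbd4, the glycosylase, was at -1.77 in line 7 and -1.54 in line 13, against -0.22 in BMMNCs (A_51_P203192, chromosome 6), and fell by 1.44 (SE 0.15, limma adjusted p = 0.00587). Its lines were the farthest apart of the 13 probes, by 0.23, which is still far less than its distance from the marrow array.

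Mbd1, a repressor that binds methylated CG, was read by 2 probes for NM_013594 on chromosome 18. The brighter (A_51_P143224) was at 0.97 in line 7 and 1.07 in line 13, against 2.25 in BMMNCs, and fell by 1.23 (SE 0.10, limma adjusted p = 0.0039). The dimmer (A_52_P158923) was at -1.91 and -1.88 in the lines, against -0.58 in BMMNCs, and fell by 1.32 (SE 0.092, adjusted p = 0.00274). The 2 probes gave falls of like size, 2.34-fold and 2.49-fold.

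Mbd3 differed in direction from the other Mbd genes. Its probe (A_51_P398004, chromosome 10) was at 2.46 in line 7 and 2.43 in line 13, against 1.35 in BMMNCs, and rose by 1.10 (SE 0.093, 2.14-fold, limma adjusted p = 0.00391). The lines were 0.035 apart and both stood above the marrow array.

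**Figure D2:**
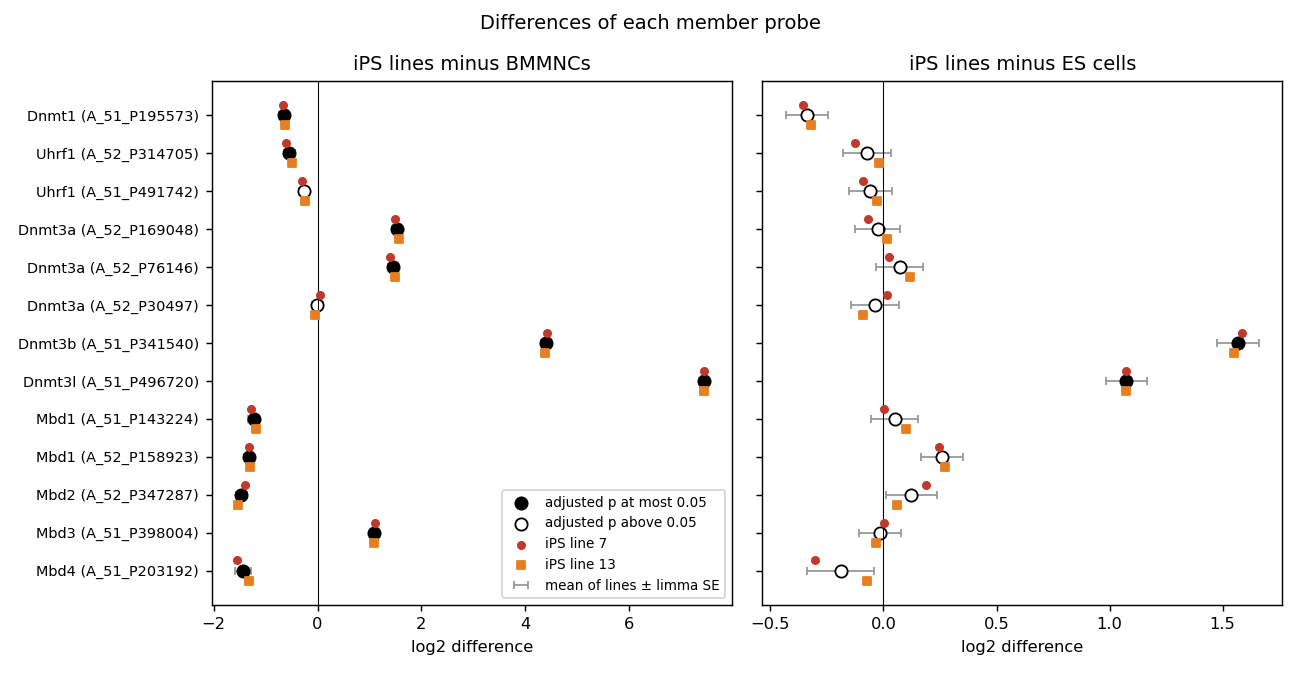
Log2 differences of the 13 member probes for the iPS lines minus BMMNCs (left) and minus ES cells (right), on axes of different range. Large circles are the mean of lines 7 and 13 with the limma SE, filled where the adjusted p was at most 0.05, and small symbols are the single lines. Against ES cells the filled circles are Dnmt3b at 1.57 and Dnmt3l at 1.07, and the other probes lie between -0.34 and 0.26.

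The lines were next set against ES cells, the usual yardstick of pluripotent cells. Dnmt3b and Dnmt3l were higher in both iPS lines, and the other 11 probes did not pass. The background was 4.86% of all probes past the threshold, 1.98% higher and 2.88% lower. Dnmt3b was at 3.63 in line 7 and 3.60 in line 13, against 2.05 in ES cells, and rose by 1.57 (SE 0.093, 2.96-fold, limma adjusted p = 0.0402). Dnmt3l was at 5.84 in both lines, against 4.77 in ES cells, and rose by 1.07 (SE 0.091, 2.10-fold, limma adjusted p = 0.0440). Larger rises were found for 451 probes in the case of Dnmt3b and for 1006 in that of Dnmt3l.

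Both calls are near the limit of this fit, in which the smallest adjusted p of any probe was 0.0390. With no filter on dim probes the adjusted p was 0.152 for Dnmt3b and 0.179 for Dnmt3l, and it was 0.0518 and 0.0538 with the authors' own values, and 0 probes of the array passed in either setting. The sizes hardly moved, from 1.55 to 1.66 for Dnmt3b and from 1.07 to 1.18 for Dnmt3l over 10 alternatives. Strain, cell of origin and the Oct4-EGFP transgene also separate the iPS lines from the single ES array, and these cannot be told apart from reprogramming. All 8 feeder fibroblast markers were higher in the mean of the lines than in ES cells, by 0.03 for Col1a1 to 0.42 for Col6a1 (median log2 difference 0.23). The other 2 probes of Col1a1 gave 0.39 and 0.42. None of the 8 markers passed, which does not show that feeder content was equal, and its part in these differences was not tested. Of the 6 pluripotency markers tested, Zfp42, which encodes the zinc finger protein Rex1, was lower in the lines, at 3.31 in line 7 and 3.55 in line 13, against 7.12 in ES cells (log2 difference -3.70, SE 0.16, limma adjusted p = 0.0390), with -4.93 on its other probe. The other 5 did not pass, with differences from -0.58 for Esrrb to 0.12 for Dppa5a, and the part of any such difference in pluripotent state in the levels of Dnmt3b and Dnmt3l was not tested.

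For Dnmt1 the ES level of 3.11 lay above both lines, 2.75 and 2.79, with a log2 difference of -0.34 that did not pass (SE 0.093, limma adjusted p = 0.139). It passed in 3 of 8 alternatives with a test, over which the adjusted p ranged from 0.00338 to 0.443. Of the replication genes 0 of 11 passed against ES cells, beside 4.86% of all probes, with a median log2 difference of -0.45. Of the 11, 6 were lower with normexp background correction, 6 with probes above background on all arrays and 8 with an intensity trend. Dnmt1 passed in these settings. They also called more of all probes lower, 3956 of 27257, 4183 of 19316 and 5526 of 27257, against 785 in the main fit. All 11 differences were below 0, from Mcm3 at -0.90 (SE 0.099, limma adjusted p = 0.0549) to Mcm4 at -0.12. The other probe of Mcm3 gave -0.33.

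The remaining members gave small differences from ES cells, and missing the threshold with so few arrays does not show that levels were equal. The bright Dnmt3a probes differed by -0.03 and 0.07 and the dim one by -0.04, with SEs of 0.10 to 0.11. Uhrf1 differed by -0.07 and -0.06, Mbd3 by -0.01 and Mbd2 by 0.12, and the signs of Uhrf1, Mbd3, the dim Dnmt3a probe and the brightest one turned with the scaling. Mbd1 gave 0.05 on its brighter probe and 0.26 on its dimmer one (limma adjusted p = 0.770 and 0.190), and Mbd4 -0.19. Over the 13 probes the median absolute difference was 0.073, and over all probes it was 0.249.

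**Figure D3:**
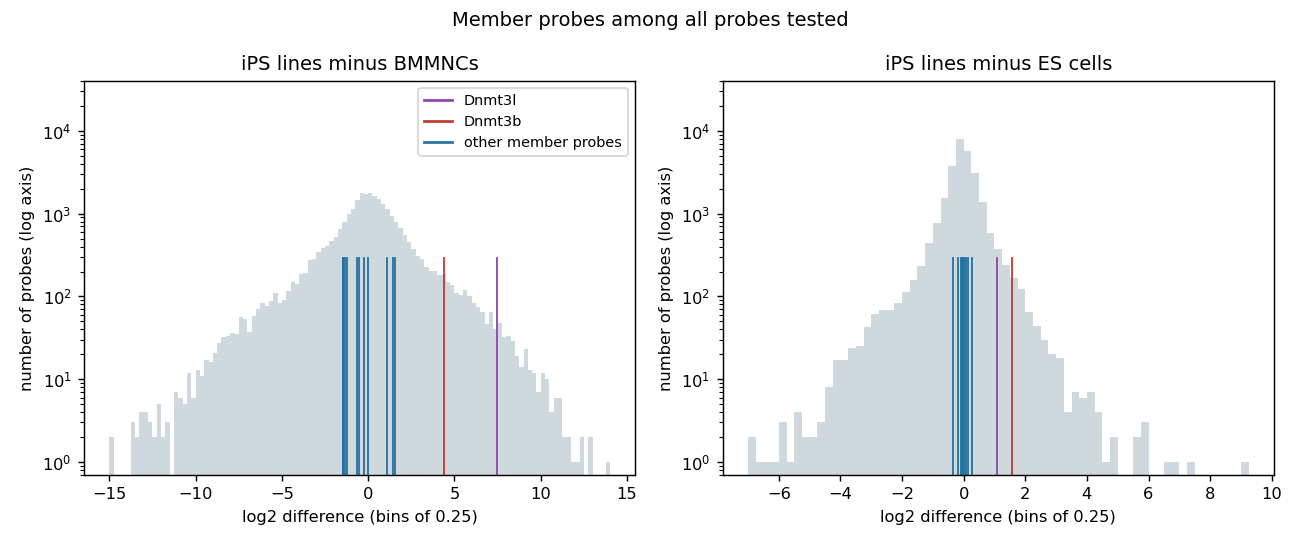
Histograms of the log2 differences of all 27257 probes tested (log count axis) for the iPS lines minus BMMNCs (left) and minus ES cells (right), with a vertical line for each member probe. Dnmt3l at 7.44 and Dnmt3b at 4.40 lie in the right tail on the left panel, and at 1.07 and 1.57 on the right panel, where the other members lie near 0.

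ES cells were also set against BMMNCs, as 1 array against 1 with no replicate check, where a probe was counted if the arrays were at least 4-fold apart. Of the 13 probes 2 were, Dnmt3l (4.77 in ES cells and -1.60 in BMMNCs, 82.5-fold) and Dnmt3b (2.05 and -0.79, 7.14-fold), and both were higher in ES cells. The background was 31.9% of all probes, 17.1% higher and 14.8% lower. Mbd3 was 2.16-fold higher in ES cells, and the bright Dnmt3a probes were 2.94-fold and 2.60-fold higher. Mbd1 was 2.43-fold and 2.98-fold lower, Mbd2 3.01-fold lower and Mbd4 2.38-fold lower. Dnmt1 and both Uhrf1 probes differed from -0.47 to -0.21 on the log2 scale. This comparison and that of the iPS lines share the BMMNC array, so its error enters both.

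Lines 7 and 13 differed by 2-fold or more on 0 of the 13 probes and on 2.15% of all probes, 1.20% higher in line 7 and 0.958% lower. The gap between them had a median of 0.084 over the 13 probes and 0.104 over all probes. It ranged from 0.0013 for Dnmt3l to 0.23 for Mbd4.

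The order of levels was read against that gap, probe by probe. Dnmt3b and Dnmt3l ran from the iPS lines through ES cells to BMMNCs, with both steps larger than the gap between the lines. Dnmt1 ran the other way, from BMMNCs through ES cells to the iPS lines, again with both steps larger. Its step between ES and iPS cells did not pass (limma adjusted p = 0.139). The gaps of these 3 probes, 0.033 for Dnmt3b, 0.0013 for Dnmt3l and 0.035 for Dnmt1, were below the median of 0.104 over all probes. Each gap is a single difference, so a small gap is an easy mark to exceed. For Uhrf1, Mbd2, Mbd4 and the brighter Mbd1 probe BMMNCs were highest, and ES and iPS cells did not differ beyond the gap. The dimmer Mbd1 probe had the same top, with ES cells 0.26 below the lines. For Mbd3 and the bright Dnmt3a probes BMMNCs were lowest, and ES and iPS cells again lay within the gap. For the dim Dnmt3a probe no step exceeded the gap.

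Genes with the most similar profile over the 4 arrays were sought among 10006 genes well above background on every array, by the root mean square distance between levels centred on their own mean. Nearest to Dnmt3l was Trim6, a ubiquitin ligase gene, at a distance of 0.11, with levels of 3.21 in line 7, 3.31 in line 13, 2.07 in ES cells and -4.43 in BMMNCs. Ccn1, a matrix signalling protein, and Dusp9, a phosphatase of MAP kinases, followed at 0.19 and 0.22. Nearest to Dnmt3b was Tfpi, an inhibitor of blood coagulation, at 0.084, with levels of 2.33, 2.36, 0.97 and -1.94 in the same order of arrays. Ap1m2, a subunit of an epithelial clathrin adaptor, and Nrsn1 followed at 0.092 and 0.10.

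**Figure D4:**
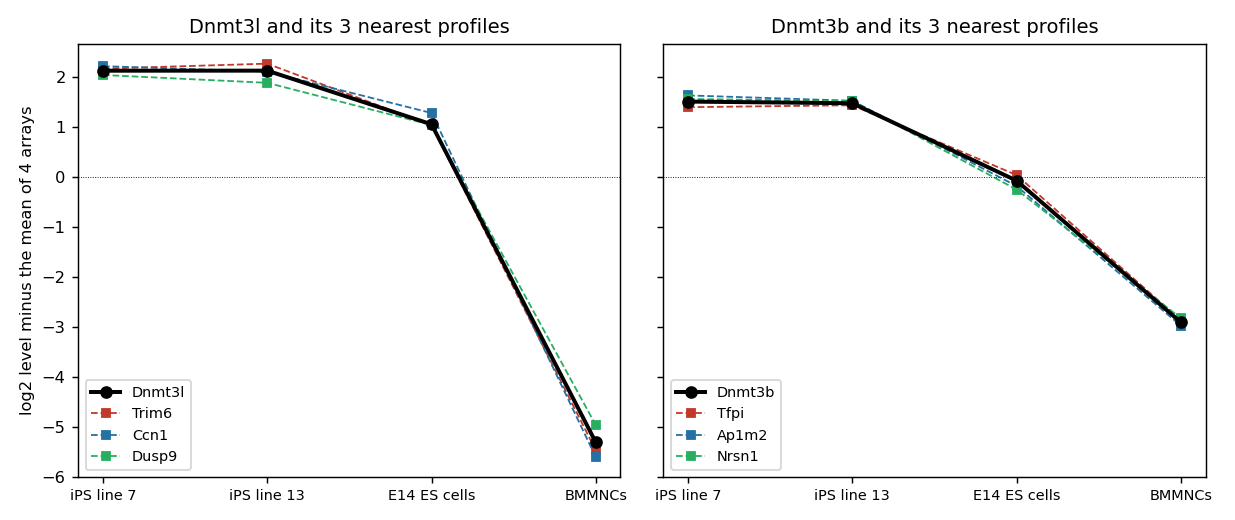
Levels of Dnmt3l (left) and Dnmt3b (right) and of the 3 genes nearest to each, on a log2 scale with each gene centred on its mean of 4 arrays. ES cells stand 6.01 to 6.89 above BMMNCs in the Dnmt3l panel and 2.58 to 2.91 above them in the Dnmt3b panel.

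Dnmt1 lay nearest to Pex11g, 1110032A03Rik and Aprt, at 0.011 to 0.016, and Uhrf1 nearest to Cetn2, Tbk1 and Pmf1, at 0.0078 to 0.011. Those distances are below the median gap between lines of 0.104, and such shallow profiles have many near neighbours. With 4 arrays the likeness is a description.

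Genes that work with the members were read from lists, 1 probe a gene. Over all probes 40.0% were higher and 36.4% lower against BMMNCs, and 4.86% passed against ES cells. A count near these shares, or 0 of a short list against ES cells, does not set a list apart. Of the active demethylation genes, which remove methylated cytosine, 5 of 8 rose against BMMNCs and 1 fell (median 1.06). Tet2, an oxidase of methylcytosine, was at 0.14 in line 7 and 0.21 in line 13, against -1.54 in BMMNCs. It rose by 1.71 (SE 0.10, limma adjusted p = 0.00199), with 1.49 on its other probe. Tdg, the glycosylase that removes oxidised methylcytosine, rose by 1.25 (SE 0.091, adjusted p = 0.00295), with 0.41 on its other probe. Apobec1, a cytidine deaminase, fell by 2.64 (SE 0.092, limma adjusted p = 0.000976), with -1.77 on its other probe. Against ES cells 0 of 8 passed, while up to 3 were higher and 3 lower under alternatives. The largest difference there was that of Gadd45a, a stress response gene also tied to demethylation, at 3.30 and 3.50 in the lines and 2.07 in ES cells (log2 difference 1.32, SE 0.14, adjusted p = 0.0519), and it passed in 4 of 8 alternatives.

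In the list of other methyl-CpG readers, 3 of 3 genes tested were lower against BMMNCs (median -0.94), beside 36.4% of all probes. Against ES cells 0 of 3 passed. Zbtb33, also in this list, was well above background on 0 arrays and was not tested. The list name does not show that the product of each gene, such as Mbd6, binds methylated CG, which was not measured here. Mbd6 was at 1.33 in line 7 and 1.36 in line 13, against 3.12 in BMMNCs, and fell by 1.77 (SE 0.092, limma adjusted p = 0.00166), with -0.48 on its other probe. Zbtb38, a zinc finger protein that binds methylated CG, fell by 0.85 (SE 0.11, adjusted p = 0.00893). Uhrf2, the relative of Uhrf1, fell by 0.94 (SE 0.096, adjusted p = 0.00566), with -1.58 on its other probe.

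Among genes that target or protect methylation 5 of 7 rose against BMMNCs and 0 fell (median 1.20), beside 40.0% and 36.4% of all probes. Hells, a remodeller needed for methylation of repeats, rose by 1.85 (SE 0.14, limma adjusted p = 0.00303), and Trim28, the corepressor of KRAB zinc finger proteins, by 2.43 (SE 0.093, adjusted p = 0.00108). Dppa3, which guards maternal methylation in the early embryo, was not well above background in BMMNCs and was at least 249.6-fold higher in the lines (limma adjusted p = 0.000623). It was also the 1 gene of this list past the threshold against ES cells, at 3.05 and 3.01 in lines 7 and 13 and 1.60 in ES cells (log2 difference 1.43, SE 0.093, adjusted p = 0.0408), a call that was lost with the authors' own values (adjusted p = 0.0524) and with no filter on dim probes (0.158). Ehmt2, a histone methyltransferase, was 0.69 higher than in ES cells and did not pass (adjusted p = 0.0717), though it passed in 3 of 8 alternatives.

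NuRD subunits, the partners of Mbd2 and Mbd3, gave 6 risen and 2 fallen of 10 against BMMNCs (median 0.63), beside 40.0% and 36.4% of all probes. Against ES cells 0 of 10 passed the threshold, beside 4.86% of all probes. Mta3 was 0.54 higher than in ES cells (limma adjusted p = 0.0838), with 0.24 on its other probe, and passed in 3 of 8 alternatives. Against BMMNCs Mta3 rose by 1.88 (SE 0.095, limma adjusted p = 0.00159), but its other probe gave -0.72. Chd4, the remodelling ATPase, fell by 0.49 (SE 0.091, adjusted p = 0.0216, and 0.0939 with no filter on dim probes), and its other probes gave 0.56 and 0.89. Mta1 differed by 0.26 and did not pass (adjusted p = 0.0923), though it was higher past the threshold in 5 of 9 alternatives with a test. Of 4 genes that supply the methyl donor 2 rose and 1 fell against BMMNCs (median 0.45). Ahcy, which clears the by-product of methylation, rose by 1.73 (SE 0.092, adjusted p = 0.00174), and Mat2b fell by 0.52 (SE 0.11, adjusted p = 0.0271) with 0.067 on its other probe. Mat2a, a synthase of the methyl donor, differed by 0.29 (adjusted p = 0.0722) and was higher past the threshold in 5 of 9 alternatives with a test. The fall of Mat2b was lost with no filter on dim probes (adjusted p = 0.0944) and with ES and iPS cells as 1 group (0.156), which left 0 fallen genes in this list.

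**Figure D5:**
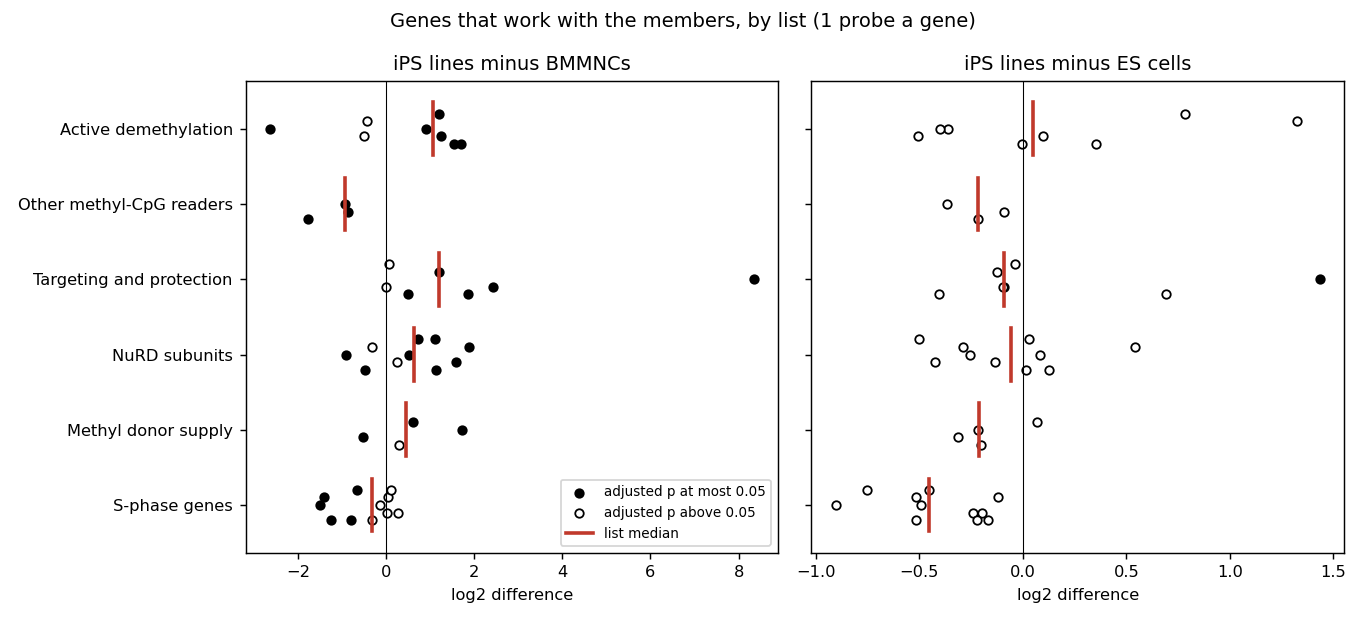
Log2 differences of the genes in 6 lists, 1 point per gene, for the iPS lines minus BMMNCs (left) and minus ES cells (right), on axes of different range. Filled points have an adjusted p of at most 0.05 and red bars are list medians. The genes in the list of other methyl-CpG readers lie left of 0 against BMMNCs, with a median of -0.94. Against ES cells Dppa3 at 1.43 is the filled point.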

How the data were processed

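Cy3-labelled cRNA of 4 samples was hybridised to Agilent arrays that, per the file headers, share 1 slide and 1 time of scanning. The deposited intensities are Feature Extraction (9.5 per the submitters' processing notes, 9.5.1.1 per the file headers) processed signals, background-subtracted and detrended within the array. The authors' value table holds these intensities multiplied by a constant for each array, so it is linear and its genes are uncentred. Its medians were 135.9 and 133.6 in lines 7 and 13, 139.9 in ES cells and 106.2 in BMMNCs, and the origin of the constants is unknown. No spot was saturated. The 75th percentile signal was 1120 and 1123 in lines 7 and 13, 1048 in ES cells and 602 in BMMNCs. From 54.6% to 59.0% of probes were well above background, on at least a share of 0.5 of their spots. The number of arrays limits the precision. Spots of the 245 probes with 10 spots had a median SD of 0.082 to 0.104.

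Control spots and 14 probes with non-uniform spots were left out, and spots of a probe were averaged as log2 signals minus the array's 75th percentile. Probe accessions were looked up, versions removed, in a RefSeq gene table of GRCm38.p6, which named 22948 of 41160 probes. Probe design used another build (mm7, per the file headers), so no probe coordinates are given. The promoter coordinates printed above are those of GRCm38.p6. The 27257 probes well above background on at least 1 array were fitted with limma 3.58.1 in R 4.3.3, with a mean each for iPS lines, ES cells and BMMNCs and no covariate, and adjusted by Benjamini-Hochberg. Moderation used a prior SD of 0.092 with 1.87 degrees of freedom. The fit was also run on simulated data in which each probe varied alike on all 4 arrays. It could therefore not test whether the ES and BMMNC arrays vary like the iPS lines. A fold given as at least N sets the mean of the bright arrays against the dim array's own signal or its lowest signal well above background, whichever is higher. Alternatives were other scalings, backgrounds, filters, values, variance models and units, and leaving out each line.

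The members and lists were chosen with earlier results of these data known. Named genes were all members, the first 2 matched genes of each list and, per comparison, the gene of its largest difference measured on both sides, and the 3 nearest profiles of Dnmt3b, Dnmt3l, Dnmt1 and Uhrf1. Dppa3, Ehmt2, Mcm4, Zfp42, Esrrb and Dppa5a were added after their values were seen. List genes with no matched probe, among them Tet1, Tet3, Mbd5 and Usp7, were not analysed here. A further listed gene is not reported here, and list counts leave it out.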

Additional observations from a re-analysis of the deposited data

How the results depend on the processing

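Against BMMNCs, the 5 risen and 6 fallen member probes stayed within 1.5 times of those numbers in all alternatives with a test, which were other scalings, the authors' table, normexp, other filters, an intensity trend, 1 probe per gene, and ES and iPS as 1 group. Dnmt3l ranged from 7.08 to 7.56, Dnmt3b from 3.88 to 4.53, Mbd3 from 0.88 to 1.22 and Mbd2 from -1.68 to -1.34 over 11 alternatives each, all past the threshold where tested. The second Uhrf1 probe passed in 3 of 8. The dim Dnmt3a probe turned to 0.13 with the authors' table and 0.0070 with ES and iPS as 1 group, and Mcm3 to 0.060 with quantile normalization and 0.16 with ES and iPS as 1 group. The median over all probes, 0.063, went to -0.15 with array median scaling, to -0.15 with normexp and to 0.19 with the authors' table. Dnmt1, at -0.65, went to -0.86, -0.58 and -0.52 in the same order of settings. The first Uhrf1 probe, at -0.55, went to -0.76, -0.48 and -0.42. These small differences thus moved with the median under array median scaling and the authors' table, and against it with normexp.

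Against ES cells, 0 member probes were higher past the threshold with the authors' table and with no filter on dim probes, where 0 of all probes passed in limma (8585 and 6219 at an unadjusted p under 0.05). Of all probes 1325 passed, against 6678 with normexp, 7238 above background on all arrays and 9703 with an intensity trend, and in those 3 settings 1 member probe, Dnmt1, fell. With array median scaling signs turned for Uhrf1 (0.020 and 0.035), Dnmt3a (0.067 and 0.056), Mbd3 (0.079), Tet2 (0.089), Zbtb38 (0.0036) and Trim28 (0.0010). With quantile normalization they turned for Dnmt3a (0.0039 and 0.020), Mbd3 (0.025), Tet2 (0.012) and Trim28 (0.014), and with the authors' table for Dnmt3a (0.0080 and 0.0026), Mbd3 (0.023) and Tet2 (0.027). Normexp turned Mbd3 (0.0061). Causes were not tested. In the lists, normexp, probes above background on all arrays and the intensity trend gave 6, 6 and 8 lower replication genes (0 of 11 otherwise). In the same order, these settings gave 3, 3 and 3 higher and 2, 3 and 3 lower demethylation genes. For NuRD genes the numbers were 1, 1 and 1 higher and 2, 3 and 3 lower. Array median scaling gave 1 higher demethylation gene, Gadd45a (adjusted p = 0.0490). Against BMMNCs, fallen demethylation genes numbered 1 to 3.

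Normexp was run on median signals, as the files hold no mean signals, an alternative chosen after seeing the data. Leaving out a line left no residual spread and so gave values with no test: Dnmt3b was 1.58 and 1.55, and Dnmt3l 1.07 each time, against ES cells. ES against BMMNCs and line 7 against line 13 kept 2 and 0 member probes past their folds in 4 alternatives. No paired analysis was possible because iPS is the one group with replicates. The 13 member probes were 3.87 to 1352 times their local background, the dim Dnmt3a probe being the least.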
